A study of Mus musculus with 15 samples.

Results

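Single-cell RNA counts from mouse striatum were examined for 7 genes of 15932 in the deposited table: Gper1, Ptk2, Rgs5, Vtn, Kcnj8, Higd1b and Ndufa4l2. Rgs5, Vtn, Kcnj8, Higd1b and Ndufa4l2 were chosen as genes that mark brain pericytes. Gper1 and Ptk2 were selected on their levels with olanzapine against placebo and on joint detection: an earlier analysis of the same counts had called both in the class of cells deposited as other, and had found both in the same cells as the pericyte genes. The olanzapine and placebo values of Gper1 and Ptk2 in that class, the levels of all 7 genes across classes and their joint detection are therefore given as descriptions, with no p.

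The mice were male C57BL/6J animals, bought at 8 weeks of age and given about 1 week to settle before dosing. They fell into 3 groups of 5: olanzapine given in the food, haloperidol given from implanted pellets, and placebo, each for 28 to 29 days. The route of delivery thus differed along with the drug, and the labels do not describe the placebo's route. Each mouse gave 1 library: dissociated striatal cells, cleared of dead cells, with 500 cells loaded per well of a droplet instrument that tags the 3′ end of each RNA molecule with a unique molecular identifier (UMI).

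Pericytes are the mural cells that wrap brain capillaries inside the basement membrane they share with the endothelium. They are known for their part in blood-brain barrier upkeep and capillary tone. Endothelial platelet-derived growth factor recruits them, and Notch signalling, which acts on its targets through the DNA-binding protein RBPJ, maintains mural cells. Contractile smooth muscle cells take the place of pericytes on arterioles, and the 2 cell types share many genes.

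The authors sorted cells into 7 classes, and the vascular cells fell in the class named other. After filters 5265 cells with 17879351 UMIs remained, of which 499 cells were in class other. Libraries held 70 to 1172 cells and 215990 to 4235427 UMIs. The labels of 2 glial classes went against their markers: the myelin gene Mog averaged 2514 ± 390 CPM (UMI counts per 1000000 of the summed UMIs; SD, n = 9 mice) in the class labelled olig precursor and 14.6 ± 35.4 CPM (n = 11) in the class labelled oligodendrocyte. The precursor marker Pdgfra averaged 0.53 ± 1.58 CPM and 895 ± 161 CPM in the same 2 classes, so both are called below by their deposited names only.

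Libraries that share cells or lost cells to a filter touch every drug result. The library of placebo 5 shared 110 cell barcodes with that of placebo 3 and 101 with that of placebo 2, whereas each of the 14 other pairs of libraries with a shared barcode shared at most 2. In each of these 211 cases the copy in placebo 5 had fewer UMIs, by a median of 3.25-fold and 3.05-fold, and a median of 96.6% and 94.9% of its genes were also found in the deeper copy. The 211 copies, 25 of them among the 62 class other cells deposited for placebo 5, were removed, and results are also given with them kept. Separately, the doublet caller marked all 12 class other cells of olanzapine 2 and 6 of the 8 of olanzapine 1. Its cutoff was set per library and was lowest in olanzapine 2, at 0.0348 against 0.0796 to 0.237 in the others. In olanzapine 2 it marked 38 of 128 deposited cells, out of 82 marked in all libraries. Whether these cells are doublets was not tested. Class other was therefore compared over olanzapine 3, 4 and 5, haloperidol 2 to 5 and placebo 1 to 5, the mice with at least 10 such cells, and over olanzapine 2 as well with doublets kept.

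Promoter sequence in RefSeq (build GRCm38.p6) was matched for 4 of the 7 genes, as windows running from 250 bases before the start site to 50 bases after it. The windows of Gper1, Vtn and Kcnj8 are shown because the 3 genes were detected in the same cells and because each holds the core letters of the RBPJ motif. Capitals mark TGGGAA, the letters of the RBPJ core, on either strand, a match on the other strand being written as its reverse complement. They also mark the core promoter element TATAAA in the same way, and its overlapping matches in Vtn run together. Gper1 was read from chr5:139422929-139423228 on the plus strand, Vtn from chr11:78498870-78499169 on the plus strand and Kcnj8 from chr6:142571565-142571864 on the minus strand, each written 5′ to 3′ along its gene.
Gper1: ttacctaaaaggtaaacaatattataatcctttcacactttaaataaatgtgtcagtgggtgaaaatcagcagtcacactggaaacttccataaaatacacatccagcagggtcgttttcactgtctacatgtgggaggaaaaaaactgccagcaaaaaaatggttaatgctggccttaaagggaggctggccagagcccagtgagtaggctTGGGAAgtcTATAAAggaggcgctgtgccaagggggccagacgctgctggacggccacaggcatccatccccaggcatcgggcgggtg
Vtn: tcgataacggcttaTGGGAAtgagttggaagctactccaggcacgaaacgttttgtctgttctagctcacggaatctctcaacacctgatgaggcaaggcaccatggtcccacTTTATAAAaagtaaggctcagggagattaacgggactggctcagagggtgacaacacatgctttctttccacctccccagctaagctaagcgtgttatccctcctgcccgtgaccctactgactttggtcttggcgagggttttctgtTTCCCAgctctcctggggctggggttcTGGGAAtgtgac
Kcnj8: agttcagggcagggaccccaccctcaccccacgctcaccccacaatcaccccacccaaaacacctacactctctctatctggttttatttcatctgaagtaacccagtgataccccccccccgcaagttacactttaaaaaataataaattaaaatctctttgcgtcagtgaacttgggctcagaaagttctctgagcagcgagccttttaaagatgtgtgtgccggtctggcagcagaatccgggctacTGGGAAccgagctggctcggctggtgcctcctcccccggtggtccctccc

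In the Gper1 window TGGGAA begins 38 bases before the start site of RefSeq and TATAAA 29 bases before it. The GENCODE annotation starts Gper1 earlier, at chr5:139423151, so both distances depend on the annotation used. In the Kcnj8 window TGGGAA begins at the start site itself. The Vtn window holds TGGGAA in 3 places, 1 of them on the other strand, and a pair of overlapping TATAAA matches on opposite strands. Rgs5, whose window was also searched, held neither. Of 32851 mouse promoter windows of this length, 25.6% held TGGGAA and 13.6% held TATAAA. The oestrogen response half-site GGTCA, present in 40.5% of windows, was found in those of Rgs5 and Vtn and not in that of Gper1. The hypoxia response core ACGTG, present in 19.6% of windows, and the CArG box of smooth muscle genes, present in 1.63%, were found in none of the 4. These are letter matches in 1 window per gene, not measured binding sites.

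All 7 genes had their highest level in class other. Gper1, which encodes a membrane receptor for oestrogens that couples to G proteins, averaged 247 ± 109 CPM there (SD, n = 12 mice), with 384 UMIs in all. Its next level was 1.60 ± 2.18 CPM in astrocytes, where 1566 cells gave 11 UMIs. In oligodendrocyte, neuron, neuroblast and microglia it averaged 0.74, 0.33, 0.087 and 0.065 CPM, and the class olig precursor gave 0 UMIs. Below class other the spread over mice was wider than the gaps between these levels, so their order cannot be read.

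Ptk2, which encodes focal adhesion kinase, the tyrosine kinase that integrins engage at contacts with the matrix, was spread more widely. It averaged 151 ± 64.3 CPM in class other, with mice between 76.5 and 289.9 CPM. The order below it ran from olig precursor (84.7 ± 28.0 CPM) through oligodendrocyte (59.0 ± 32.7), neuron (55.6 ± 26.6), astrocyte (42.7 ± 19.6) and neuroblast (41.2 ± 21.3) to microglia (2.08 ± 3.93). Neighbours in this order overlapped in their mice, microglia and neuroblast only in that the highest microglia value, 13.2 CPM, passed the lowest neuroblast value, 10.9 CPM.

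The 5 pericyte genes were close to absent outside class other. Kcnj8, the pore subunit of a potassium channel that closes on ATP, averaged 459 ± 256 CPM in class other and at most 0.13 CPM in any other class. Rgs5, which speeds the shut-off of G protein alpha subunits, averaged 2239.7 ± 693 CPM against at most 3.7 CPM elsewhere. Vtn, the secreted matrix protein vitronectin, averaged 4907 ± 2249 CPM against at most 4.5 CPM. The mitochondrial proteins Higd1b and Ndufa4l2, the second of them a hypoxia-induced relative of a respiratory chain subunit, averaged 1039 ± 378 and 822 ± 273 CPM against at most 2.5 and 1.6 CPM.

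Free RNA in droplets can give UMIs to cells that do not express a gene, so detection was also compared at equal depth. With each cell thinned to 1000 UMIs, 87 of 438 class other cells held a Gper1 UMI, 19.9%, against 3 of 1463 astrocytes, 0.205%. Median depth before thinning was 2226 UMIs in class other and 2280 in astrocytes. No Gper1 UMI was seen in 870 thinned neurons, which allows a share of up to 0.345% of such cells with a UMI and sets no limit on cells expressing the gene. Before thinning, 2 of 909 neurons held 1. Ptk2 was held by 14.8% of class other cells, 10.3% of olig precursor, 5.52% of neurons, 5.45% of oligodendrocyte, 4.39% of neuroblasts, 3.83% of astrocytes and 0.485% of microglia. The 0.485% in microglia, with a median of 3582 UMIs before thinning, is the lowest of these shares.

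Of the genes that overlap the members, 3110082I17Rik runs along the opposite strand through the whole of Gper1 (mm10 chr5:139423151-139427800, plus strand). It averaged 13.2 ± 12.8 CPM in class other with 21 UMIs, and 3.4 to 13.6 CPM in the other classes. The end of Ndufa4l2 (chr10:127514967-127517154, plus strand) overlaps that of Shmt2, which averaged 21.3 ± 16.8 CPM in class other. Whether reads were counted by strand is not given in the sources used here. Ptk2 lies at chr15:73205102-73423280 on the minus strand, Rgs5 at chr1:169655501-169695813 on the plus strand, Vtn at chr11:78499091-78502324 on the plus strand, Kcnj8 at chr6:142564837-142571614 on the minus strand and Higd1b at chr11:102835849-102838040 on the plus strand.

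Class other was split into groups of like cells without use of the 7 genes, and groups were named from listed vascular markers. It held 222 endothelial-like cells, 107 pericyte-like cells (18 of 20 listed pericyte markers, none of them a member, with a median of 2052 UMIs), 49 fibroblast-like cells and 42 smooth muscle-like cells. A further 79 cells stayed unnamed. Of these, 46 had a median of 7235.5 UMIs, and 100% of them held at least 2 endothelial, 98% at least 2 pericyte and 87% at least 2 smooth muscle markers. Whether missed doublets are among them was not tested. The rest of the unnamed cells formed clusters of 20 and 13 cells, in which 95% and 100% of cells held at least 2 endothelial markers. The same number of cells, 107, was named pericyte-like at each of 3 resolutions tried.

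All 7 genes were highest in the pericyte-like cells. Gper1 stood at 867 CPM of their pooled UMIs and had a UMI in 77.6% of the cells. It was next highest in smooth muscle-like cells at 319 CPM, followed by 197 CPM in the unnamed cells, 54.8 CPM in endothelial-like and 41.4 CPM in fibroblast-like cells. The endothelial-like value pools a cluster of 150 cells at 9.96 CPM (3 UMIs) and a cluster of 72 cells at 114 CPM (26 UMIs). The 46 deep unnamed cells stood at 269.5 CPM with a UMI in 87.0% of them. Ptk2 had the same order, with 467 CPM in pericyte-like cells (a UMI in 62.6%), 162 CPM in smooth muscle-like, 119 CPM in unnamed, 52.9 CPM in endothelial-like and 49.7 CPM in fibroblast-like cells.

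The 5 pericyte genes differed in how far they reached into the other groups. Kcnj8 stood at 2104 CPM in pericyte-like cells, at 414 CPM in unnamed cells and at 40.5 CPM in smooth muscle-like cells. Rgs5 stood at 4441 CPM in pericyte-like and at 3290.3 CPM in smooth muscle-like cells, the nearest pair for these 2 groups among the 7 genes. In unnamed cells it stood at 2640 CPM. Vtn stood at 24565 CPM in pericyte-like and 9510 CPM in fibroblast-like cells, at 3107 CPM in unnamed and at 1387 CPM in smooth muscle-like cells. Higd1b (3477 CPM) and Ndufa4l2 (2918 CPM) were next highest in smooth muscle-like cells, at 1301 and 861 CPM, and stood at 1147 and 691 CPM in unnamed cells. In fibroblast-like cells Rgs5 and Higd1b had 0 UMIs.

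The pericyte-like cells held 48.9% of all Gper1 UMIs of class other and 44.5% of those of Ptk2. For Kcnj8 the share was 65.9%, for Vtn 63.0%, for Ndufa4l2 51.6%, for Higd1b 46.0% and for Rgs5 28.4%. The unnamed cells held 41.0% of the Rgs5 UMIs, more than the pericyte-like cells, and 27.0% of those of Gper1, 27.7% of Ptk2, 31.6% of Kcnj8, 19.4% of Vtn, 36.9% of Higd1b and 29.7% of Ndufa4l2. A level in class other as a whole therefore moves both with the makeup of the class and with the RNA of each cell type.

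**Figure D1:**
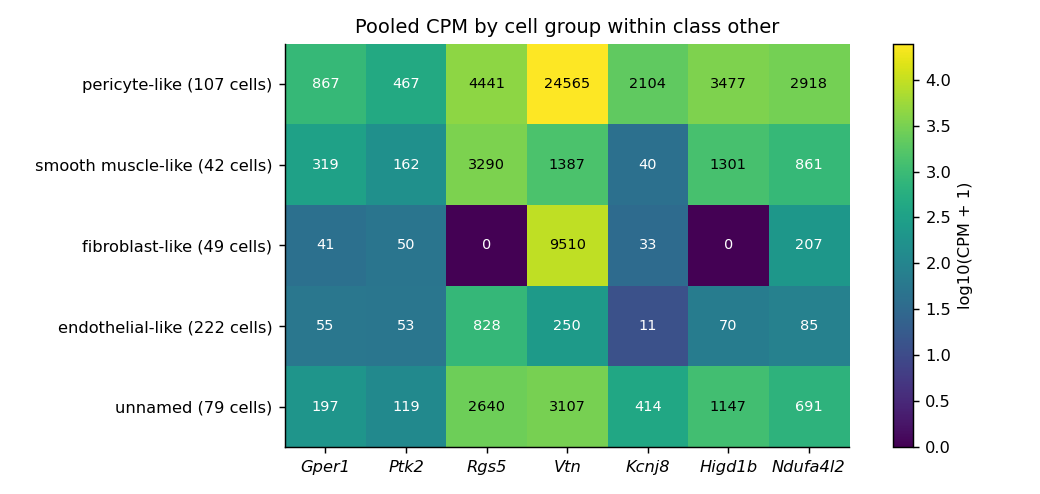
Level of the 7 genes in the groups of class other cells found without them, in CPM of the pooled UMIs of each group on a log axis. Pericyte-like cells are highest for each gene, with Gper1 at 867 CPM there and 319 CPM in smooth muscle-like cells.

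Gper1 and Ptk2 were detected with the pericyte genes in single cells. After thinning to 1000 UMIs, which left out 61 shallower cells, Gper1 was found in 72 of the 179 cells with at least 3 of the 5 pericyte genes, 40.2% (exact binomial 95% interval 33.0 to 47.8%). It was found in 7 of 33 cells with 2 of them, 21.2%, in 3 of 73 with 1, 4.11%, and in 5 of 153 with none, 3.27% (1.07 to 7.46%). The Ptk2 shares in the same order were 29.1% (22.5 to 36.3%), 6.06%, 4.11% and 5.23% (2.28 to 10.0%). Both genes were selected in part on such joint detection, so these shares and intervals describe it and test nothing. Intervals cover counting error only, and cells of 1 mouse are not independent.

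The 2 genes were also found with each other: 29 of the 65 thinned cells with a Ptk2 UMI held Gper1, 44.6%, against 58 of the 373 without one, 15.5%. Of the single pericyte genes, Kcnj8 gave the highest Gper1 share, 47.6% of 105 cells holding it. Ptk2 was found in 29.5% of those cells and in 29.4% of the 170 cells holding Higd1b.

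**Figure D2:**
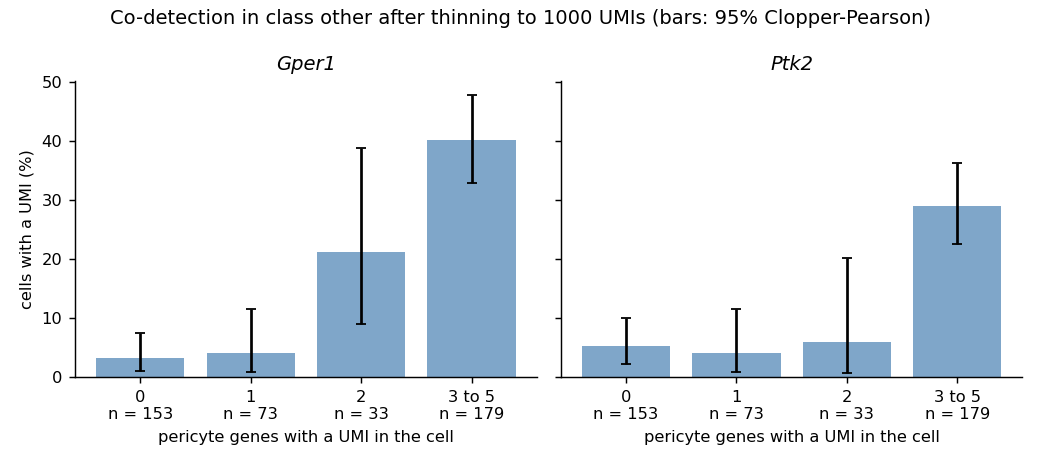
Percent of class other cells with a Gper1 or Ptk2 UMI after thinning to 1000 UMIs, by how many of the 5 pericyte genes the cell held; bars give exact binomial 95% intervals. The Gper1 share is 40.2% and the Ptk2 share 29.1% in cells with at least 3 of the genes, against 3.27% and 5.23% in cells with none.

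The genes most like Gper1 across class other cells, by the Pearson correlation of log counts averaged over 10 mice among 7359 genes, were Higd1b (0.68), Ndufa4l2 (0.65), Rgs4 (0.63), Cald1, Myl9, Kcnj8, Nbl1 and P2ry14 (0.61 each). Those most like Ptk2 were Higd1b (0.46), Rgs4 and Ndufa4l2 (0.45 each), Myl9 (0.44), P2ry14, Kcnj8 and Cald1 (0.43 each) and Mfge8 (0.42). The 2 lists share all but Nbl1 and Mfge8. Gper1 and Ptk2 correlated with each other at 0.38, with mice between 0.11 and 0.75. Cells share a library and differ in depth, so these values carry no test.

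Across drugs, Gper1 in class other stood at 323, 453 and 365 CPM in olanzapine 3, 4 and 5, at 267, 254, 321 and 145 CPM in haloperidol 2 to 5, and at 82.4, 102, 229, 192 and 233 CPM in placebo 1 to 5. All 3 olanzapine mice were above all 5 placebo mice and above all 4 haloperidol mice, the last by a gap of 321 to 323 CPM. Group means were 380.2 ± 66.5 CPM with olanzapine, 247 ± 73.7 CPM with haloperidol and 168 ± 71.1 CPM with placebo (SD). With olanzapine against placebo the log2 difference was 1.21 ± 0.30 (SE), a contrast that chose the gene. Counts were low in places, with 96, 25 and 53 UMIs in the olanzapine mice, 12, 54, 35 and 6 in the haloperidol mice, and 14 to 29 in the placebo mice.

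Ptk2 stood at 181, 289.9 and 227 CPM in olanzapine 3, 4 and 5, at 111, 122, 165 and 193 CPM in haloperidol 2 to 5, and at 76.5, 96.6, 85.9, 104 and 161 CPM in placebo 1 to 5. The 3 olanzapine mice were again above all placebo mice, while the haloperidol mice overlapped both other groups. How many of all genes part the olanzapine and placebo mice as Gper1 and Ptk2 did was not counted. Nor was the number that part the olanzapine and haloperidol mice as Gper1 did. Group means were 233 ± 54.5, 148 ± 38.1 and 105 ± 33.0 CPM in the order olanzapine, haloperidol and placebo, and the log2 difference between olanzapine and placebo was 1.07 ± 0.28.

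In the fit over 3031 genes, edgeR's quasi-likelihood test with Benjamini-Hochberg adjustment called 0 genes with olanzapine against placebo, 0%, and 221 genes had an unadjusted p under 0.05. With the copies kept in placebo 5, as in the analysis that chose Gper1 and Ptk2, 10 genes were called and both were among them, at log2 differences of 1.33 and 1.21. Since this contrast chose the 2 genes, neither count supports anything about them. DESeq2 called 4 genes, none of them a member. With doublets kept, olanzapine 2 entered at 233 CPM for Gper1 and 77.7 CPM for Ptk2, both inside the placebo range, and the log2 differences were 1.10 and 0.92. No group of mice was then apart from another for either gene.

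Haloperidol against placebo shares the placebo mice with the contrast that chose Gper1 and Ptk2, but not the treated mice. Here 1 gene of 3031, 0.033%, was called lower and none higher, none of the 7 genes among them, with 130 genes at an unadjusted p under 0.05 and 2 genes called by DESeq2. Gper1 differed by 0.68 ± 0.31 (log2 ± SE) with 3 of 4 haloperidol mice above all placebo mice, and Ptk2 by 0.46 ± 0.29 with 2 of 4 above. The placebo values helped choose both genes, so no p is given for them here. With the copies kept, placebo 5 stood at 108 CPM for Ptk2 and all 4 haloperidol mice were above all placebo mice. Placebo 5 then held copies of cells of placebo 2 and 3, so these placebo mice were not independent. How many of all genes part the 2 groups in that setting was not counted. Olanzapine against haloperidol called 0 genes, 0%, with 120 genes at an unadjusted p under 0.05 and 0 called by DESeq2. Gper1 differed by 0.53 ± 0.32 and Ptk2 by 0.61 ± 0.30 in this contrast, which shares the olanzapine mice that helped choose both genes.

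The 5 pericyte genes showed no separation by drug. Kcnj8 stood at 450.2, 707 and 572 CPM in the olanzapine mice, at 468, 446, 329.8 and 72.5 CPM in the haloperidol mice, and at 76.5, 275, 945, 463 and 707 CPM in the placebo mice. Rgs5 stood at 1623, 1939 and 2556 CPM with olanzapine, 3384, 2513, 2446 and 677 CPM with haloperidol, and 1731, 2629, 2891, 2197 and 2291 CPM with placebo. For both genes the 3 groups overlapped, and single mice lay at the extremes: haloperidol 5 was lowest for each and placebo 3 was highest for Kcnj8.

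Vtn stood at 8567, 7211 and 5167 CPM with olanzapine, 3607, 5439, 3509 and 2320.1 CPM with haloperidol, and 1489.7, 2904, 4996, 8077 and 5594 CPM with placebo. Higd1b stood at 910.5, 1105 and 1495 CPM with olanzapine, 824, 1376, 834 and 411 CPM with haloperidol, and 618, 824, 1718, 1063 and 1294 CPM with placebo. Ndufa4l2 stood at 726, 978 and 1109 CPM with olanzapine, 757, 813, 678 and 532 CPM with haloperidol, and 483, 514, 1417, 991 and 868 CPM with placebo. The groups overlapped for all 3 genes, and placebo 1 was at or near the bottom of each.

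Fitted log2 differences between olanzapine and placebo were 0.25 ± 0.64 for Kcnj8, -0.20 ± 0.34 for Rgs5, 0.60 ± 0.45 for Vtn, 0.10 ± 0.34 for Higd1b and 0.15 ± 0.29 for Ndufa4l2. Between haloperidol and placebo they were -0.44 ± 0.63, -0.04 ± 0.31, -0.29 ± 0.42, -0.28 ± 0.32 and -0.24 ± 0.28 in the same order of genes. None of these passed the test, and the errors are too wide to show that the levels were alike.

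Since the class mixes cell types, its makeup was set beside these levels. In a sum over mixed cells, fewer cells of a type and less RNA per cell cannot be told apart. Pericyte-like cells made up 26.9, 25.9 and 33.3% of class other in the olanzapine mice, 25, 20.3, 11.9 and 11.1% in the haloperidol mice, and 6.98, 0, 31.8, 19.6 and 21.6% in the placebo mice. The placebo mice thus ran from the lowest share to nearly the highest, and the 2 placebo mice with the fewest pericyte-like cells were also those lowest in Gper1. Smooth muscle-like cells made up 10.8, 11.1 and 14.8% in the olanzapine mice, 25, 8.70, 7.14 and 11.1% in the haloperidol mice, and 4.65, 3.85, 0, 2.17 and 8.11% in the placebo mice, so all olanzapine mice were above all placebo mice. With doublets kept, olanzapine 2 entered at 8.33% pericyte-like and 0% smooth muscle-like cells, and the groups overlapped in both shares. The part of these shares in the levels of Gper1 and Ptk2 was not tested.

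Within the pericyte-like cells alone, Gper1 stood at 988, 1199 and 1101 CPM in the olanzapine mice, at 264, 881, 566 and 1025 CPM in the haloperidol mice, and at 1272, 637, 498 and 545 CPM in placebo 1, 3, 4 and 5. The placebo 1 value rests on 4 UMIs in 3 cells, and placebo 2 had 0 such cells. The values of haloperidol 2 and haloperidol 5 rest on 3 and 2 cells. Pooled over mice the level was 1048 CPM in 50 olanzapine cells, 737 CPM in 24 haloperidol cells and 591 CPM in 27 placebo cells. The olanzapine and placebo mice overlapped through placebo 1, and the haloperidol mice overlapped both other groups.

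Ptk2 within pericyte-like cells stood at 494, 959 and 673 CPM with olanzapine, at 528, 252, 755 and 683 CPM with haloperidol, and at 0, 239, 299 and 218 CPM with placebo. All olanzapine mice were above all 4 placebo mice, and so were 3 of the 4 haloperidol mice. Pooled levels were 604 CPM with olanzapine from 64 UMIs, 416 CPM with haloperidol from 22 UMIs and 240.2 CPM with placebo from 13 UMIs, so single cells and few molecules carry each value.

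The pericyte genes did not all follow within those cells. Rgs5 stood between 3702 and 4165 CPM in the 3 olanzapine mice, below the 4859 to 5576 CPM of the 4 placebo mice, and between 1366 and 7529.7 CPM in the haloperidol mice. Ndufa4l2 stood between 2399 and 3029 CPM with olanzapine, between 1585 and 4439.9 CPM with haloperidol and between 3325 and 4939 CPM with placebo, so its olanzapine and placebo mice did not overlap either. With doublets kept, olanzapine 2 added a single pericyte-like cell and Ndufa4l2 then reached 4229 CPM with olanzapine, inside the placebo range. Kcnj8, Higd1b and Vtn overlapped between all groups. These are shares of a cell's RNA with no test made. How many of all genes part the olanzapine and placebo mice as Ptk2, Rgs5 and Ndufa4l2 did was not counted.

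Set against the summed UMIs of the 5 pericyte genes in the same mouse, a ratio chosen after the values had been seen, Gper1 gave 26.3, 37.9 and 33.5 UMIs per 1000 in the olanzapine mice, 29.6, 24.0, 41.1 and 36.1 in the haloperidol mice, and 18.7, 14.2, 19.1, 15.0 and 21.7 in the placebo mice. Every treated mouse lay above every placebo mouse, and with doublets kept olanzapine 2 lay above them as well, at 29.8. How many of all genes part treated from placebo mice in such a ratio was not counted. The olanzapine and placebo values of Gper1 also chose the gene. Vtn, the most abundant of the 5, stood at 24565 CPM in pericyte-like and 1387 CPM in smooth muscle-like cells, and Gper1 at 867 and 319 CPM. The ratio thus also moves with the makeup of the class, and that part was not tested. For Ptk2 the ratio was 14.8, 24.3 and 20.9 with olanzapine, 12.3, 11.5, 21.2 and 48.2 with haloperidol, and 17.4, 13.5, 7.18, 8.12 and 15.0 with placebo, and the groups overlapped. Per cell, thinned to 1000 UMIs, Gper1 was found in 51.6, 60.0 and 57.7% of the cells with at least 3 pericyte genes in olanzapine 3, 4 and 5, in 33.3, 37.0, 33.3 and 50% in haloperidol 2 to 5, and in 22.2 to 26.7% in the placebo mice. The cells behind a share numbered 10 to 31 in the olanzapine mice, 2 to 27 in the haloperidol mice and 8 to 18 in the placebo mice. Without thinning the Gper1 shares were 71.4, 90 and 71.9% with olanzapine, and 50 to 100% with haloperidol and with placebo, so the groups overlapped. The thinned Ptk2 shares, 32.3, 50 and 38.5% with olanzapine, 0 to 33.3% with haloperidol and 22.2 to 33.3% with placebo, overlapped as well.

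Outside class other only Ptk2 had enough counts to be tested, and edgeR called 0 genes, 0%, in every comparison made in the 6 other classes. In neurons Ptk2 averaged 74.2 ± 32.8 CPM with olanzapine, 46.2 ± 18.0 with haloperidol and 46.4 ± 20.5 with placebo (SD, n = 5 each), a log2 difference of 0.37 ± 0.35 between olanzapine and placebo and -0.02 ± 0.37 between haloperidol and placebo. In astrocytes it averaged 37.6 ± 25.1, 47.8 ± 22.4 and 42.6 ± 12.2 CPM in the same order of groups, and both drugs gave -0.08 against placebo (SE 0.33 for olanzapine and 0.35 for haloperidol). In olig precursor it averaged 83.3 ± 24.4 CPM in 4 olanzapine mice and 62.0 ± 8.81 CPM in 3 placebo mice, 0.29 ± 0.41, while 2 haloperidol mice stood at 120 and 124 CPM. None of these differences passed the test.

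Of the 20 other pericyte markers, 18 were tested in class other and 0 were called with either drug. With olanzapine against placebo 16 were higher and 2 lower, with a median log2 difference of 0.50, against -0.02 over all genes, and with haloperidol 13 were higher and 5 lower, median 0.23, against -0.01. The most abundant were Rgs4, another regulator of G protein signalling (1.02 ± 0.38 with olanzapine, 0.30 ± 0.38 with haloperidol), P2ry14, a receptor for UDP-sugars (0.81 ± 0.36 and 0.42 ± 0.35), and Cox4i2, a respiratory chain subunit (0.25 ± 0.25 and 0.16 ± 0.24). Their summed level was 4566 to 4871 CPM with olanzapine, 2900 to 4943 CPM with haloperidol and 1796 to 4815 CPM with placebo.

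Of 12 smooth muscle genes 9 were tested and edgeR called 0 with either drug. The fitted difference was above 0 for all 9 with olanzapine against placebo, median 1.43, each with an unadjusted p under 0.05, and for all 9 with haloperidol, median 1.05, 3 of them with such a p. With doublets kept, 3 had such a p with olanzapine and 0 with haloperidol. With the copies kept, edgeR called 2 of them with olanzapine, Lmod1 (1.44, adjusted p = 0.0367) and Myl9 (1.16, adjusted p = 0.0334). The light chain Myl9, also among the genes most like Gper1, differed by 1.13 ± 0.23 with olanzapine (adjusted p = 0.0679 by edgeR and 0.0190 by DESeq2, which called it) and 0.48 ± 0.22 with haloperidol, and the contractile genes Acta2 and Tagln by 1.77 ± 0.61 and 1.70 ± 0.60 with olanzapine. Their summed level was 8598 to 13768 CPM with olanzapine, 5608 to 9908 CPM with haloperidol and 2233 to 5959 CPM with placebo. Actg2 was not analysed here. With doublets kept, olanzapine 2 stood at 1146 CPM, below every placebo mouse. Smooth muscle-like cells hold Gper1 and Ptk2 at 319 and 162 CPM, and their part in the class levels was not tested.

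Of 12 endothelial genes, all tested, 0 were higher and 12 lower with olanzapine against placebo, median -0.22, and 2 higher and 10 lower with haloperidol, median -0.23, none called by edgeR. With the copies kept, Vwf, which encodes von Willebrand factor, was called lower with olanzapine (-1.97, adjusted p = 0.0157). The tight junction gene Cldn5 differed by -0.13 ± 0.29 with olanzapine and -0.41 ± 0.27 with haloperidol. Since all levels are shares of the class total, a higher share of one cell type lowers the others. Its part in these differences was not tested. Of 10 fibroblast genes 6 were tested and 0 called, with 5 higher and 1 lower with olanzapine, median 0.36, and 4 higher and 2 lower with haloperidol, median 0.60, among them the collagen gene Col1a2 (0.91 ± 0.43 and 0.62 ± 0.44).

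The partners of the members showed no call either. Of 30 focal adhesion genes around Ptk2, 19 were tested, with 12 higher and 7 lower with olanzapine and 11 higher and 8 lower with haloperidol, median 0.11 in both. The integrin subunit Itgb1 differed by 0.43 ± 0.24 with olanzapine and 0.26 ± 0.23 with haloperidol, and the small GTPase Rhoa by -0.15 and -0.07. Of 25 genes of oestrogen signalling 7 were tested, 4 higher and 3 lower with each drug, medians 0.20 and 0.12, and the nuclear receptor Esr2 and the aromatase gene Cyp19a1 were not analysed here. Gnai2, a G protein subunit of the kind that Rgs5 acts on, differed by -0.43 ± 0.22 with olanzapine and -0.48 ± 0.21 with haloperidol.

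Abcc9, the regulatory subunit that pairs with Kcnj8 in the channel, was the only 1 of 7 potassium genes tested, and differed by -0.17 ± 0.41 with olanzapine and -0.77 ± 0.43 with haloperidol. Of 14 hypoxia genes and respiratory partners 9 were tested, 3 higher and 6 lower with olanzapine, median -0.17, and 6 higher and 3 lower with haloperidol, median 0.16. Epas1, an oxygen-regulated transcription factor, differed by -0.28 and 0.36, and the glucose transporter gene Slc2a1 by -0.19 and 0.38. Of 8 vitronectin partners Itgb5 alone was tested, at 0.17 with olanzapine and 0.37 with haloperidol. Of 9 paralogues of the members 4 were tested, 1 higher and 3 lower with olanzapine, median -0.18, and 3 higher and 1 lower with haloperidol, median 0.30, with Ndufa4 at -0.33 and -0.11 and Higd1a at -0.02 and 0.30.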

How the data were processed

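The deposited table holds UMI counts per gene and cell, made by the authors with Cell Ranger and Seurat on mm10 per the submitters' processing notes. The sources used here give no tool versions, doublet removal or use of strand. Drug, mouse and class came from the deposited annotation. Cells above 20% mitochondrial counts (23), doublets (Scrublet in scanpy 1.11.5, 82 of 5581 cells, 1.47%) and 211 copies in placebo 5 were removed. The last choice was made after seeing the data.

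Counts were summed per mouse and class (at least 10 cells; at least 3 mice per group) and fitted over all genes with edgeR 4.0.16 (R 4.3.3; TMM, filterByExpr, two-sided robust quasi-likelihood test, all 3 groups in 1 fit, Benjamini-Hochberg within class and comparison, threshold 0.05). The method was tested on simulated data. Levels per mouse and class are CPM on TMM-scaled library sizes, and levels by group of cells are CPM of plain sums. Class other held 40960 to 307094 UMIs per mouse compared. The labels give 1 sample per mouse. Alternatives were DESeq2 1.42.0, its size factors, no count filter, only the 2 groups compared, at least 20 cells, doublets or copies kept, the 4 mice with the fewest cells left out, and each mouse left out.

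Class other was clustered without the 7 genes (2000 variable genes, 30 components, 15 neighbours, Leiden resolution 1), and a cluster was named from at least 3 markers at 2-fold and in 10% of cells. Detection used cells thinned to 1000 UMIs, and a count of 0 was read as at most 3. Positions came from GENCODE M21. Named were the 7 genes, the 8 genes most like Gper1 or Ptk2 among those seen in 5% of cells, and up to 3 of the most abundant tested genes of each list. The members and lists were chosen with earlier results of these data known.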

Additional observations from a re-analysis of the deposited data

How the results depend on the processing

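With olanzapine against placebo in class other, 0 members were called, against 2 with the copies kept in placebo 5 (Gper1 and Ptk2) and 1 without a count filter (Gper1). This contrast chose both genes, so these counts restate that choice and support nothing. Over 8 settings Gper1 stood at 1.10 to 1.33 and Ptk2 at 0.92 to 1.21, and with each mouse left out in turn at 1.01 to 1.40 and 0.96 to 1.28, with 0 members called. Against placebo with haloperidol, leaving out mice gave 0.48 to 0.86 for Gper1 and 0.34 to 0.66 for Ptk2. Joint detection with at least 3 pericyte genes was 70.8% for Gper1 and 58.8% for Ptk2 without thinning, and 58.0% and 40.5% at 2000 UMIs, against 40.2% and 29.1% at 1000. Differences near 0 turned sign, and the cause was not tested. Ptk2 in astrocytes gave 0.0102 with DESeq2 (haloperidol against placebo), and 0.0211 at 20 cells, 0.0679 without a filter and 0.22 without the 4 smallest libraries (olanzapine against haloperidol). Ptk2 in neurons gave 0.0441 with copies and 0.0266 with doublets kept (haloperidol against placebo). Rgs5 gave 0.0884 at 20 cells and 0.00784 with doublets kept (haloperidol against placebo) and 0.0839 without the smallest libraries (olanzapine against haloperidol), and Higd1b 0.0437 at 20 cells (haloperidol against placebo). Leaving out mice, Ptk2 ranged over -0.25 to 0.15 (astrocytes, haloperidol against placebo), -0.22 to 0.16 (olanzapine against haloperidol), -0.18 to 0.0509 (olanzapine against placebo) and, in neurons, -0.15 to 0.10 (haloperidol against placebo). Rgs5 ranged over -0.28 to 0.24 (haloperidol against placebo) and -0.44 to 0.0839 (olanzapine against haloperidol), Vtn over -0.54 to 0.0119 (haloperidol against placebo), and, with olanzapine against placebo, Kcnj8 over -0.0551 to 0.59, Higd1b over -0.12 to 0.30 and Ndufa4l2 over -0.00866 to 0.39. No paired analysis was possible because the labels number the mice 1 to 15 across groups and share no number between them. The 6 to 96 Gper1 UMIs per mouse limit precision.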
